A study of Homo sapiens with 6 samples.

Results

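The genes described here are 10 members of the ERBB signalling system other than EGFR: 6 ligands of the EGF family (AREG, EREG, TGFA, HBEGF, BTC and EPGN), the co-receptors ERBB2 and ERBB3, and the feedback inhibitors ERRFI1 and LRIG1. They were chosen by name, and all 10 were found by Entrez Gene ID among the 18795 genes of the table. The IDs are 374 for AREG, 2069 for EREG, 685 for BTC and 255324 for EPGN, all on chromosome 4, 7039 for TGFA on chromosome 2, 1839 for HBEGF on chromosome 5, 2064 for ERBB2 on chromosome 17, 2065 for ERBB3 on chromosome 12, 54206 for ERRFI1 on chromosome 1 and 26018 for LRIG1 on chromosome 3. RNA was sequenced from subpopulations of MDA-MB-468 and HCC70, established human breast cancer lines that lack hormone receptors and have basal-like features. Cells of each line were fixed in methanol and sorted into 3 populations, K18+K14+ (positive for keratin 18 and keratin 14), K18+Vim+ (keratin 18 and vimentin) and K18+ (keratin 18). Each population gave 1 library per line, so n = 2 per population and n = 3 per line, all untreated cells grown in medium with serum. Values are FPKM, fragment counts per transcript length and per sequenced total, as the authors deposited them, with a floor of 0.1 FPKM. The number of reads behind a value is unknown. The labels name the antigens a population was positive for, and nothing says that the libraries of a line came from separate cultures.

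EGFR, ERBB2, ERBB3 and ERBB4 are receptor tyrosine kinases that signal as pairs. The ligands are made as membrane proteins, are released by proteases of the ADAM family, and bind EGFR, some of them ERBB4 as well. ERBB2 has no known ligand of its own and is the preferred partner of the others, whereas ERBB3 has a weak kinase, binds neuregulins and couples to PI3K. In epithelia the system is restrained by inhibitors, of which ERRFI1 is induced by the signal and blocks the kinase domain, and LRIG1 lowers receptor levels.

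The sort antigens were compared with the labels first. KRT14 was highest in the K18+K14+ library and VIM in the K18+Vim+ library of each line. The MDA-MB-468 library labelled K18+Vim+ differed most. Its KRT18 value was 67.7 FPKM, against 569 FPKM in K18+K14+ and 464 FPKM in K18+ cells of that line, and its EPCAM value was 8.41 FPKM, against 108 and 115 FPKM. SMAD4 and RB1, tumour suppressor genes deleted in this line, were listed there at 5.19 and 6.68 FPKM, and at no more than 0.566 FPKM in the other MDA-MB-468 libraries. Its Pearson correlation with them over the genes tested was 0.791 and 0.828, against 0.919 between them. EGFR, amplified in this line, was at 10.4 FPKM there, against 70.7 FPKM in K18+K14+ and 153 FPKM in K18+ cells of MDA-MB-468, and was thus below the 11.2 to 23.3 FPKM of the HCC70 libraries. Whether this library holds MDA-MB-468 cells alone was not tested. Fitted differences that move with it are given with and without it, shares and levels per library show it on its own, and K18+Vim+ cells of MDA-MB-468 always means the library so labelled.

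The order of the levels, which FPKM gives per transcript length, differed between the lines. In MDA-MB-468 ERBB2 and ERBB3 averaged 22.7 ± 11.7 and 17.1 ± 12.7 FPKM (SD over the 3 populations), ERRFI1 10.7 ± 6.18 FPKM and LRIG1 10.1 ± 4.72 FPKM, and these neighbours did not differ beyond their spread. In HCC70 ERRFI1 came first with 34.8 ± 3.89 FPKM, then ERBB3 with 27.4 ± 3.13 FPKM, ERBB2 with 22.2 ± 2.82 FPKM and LRIG1 with 4.16 ± 0.796 FPKM. Among the ligands TGFA averaged 2.70 ± 2.07 FPKM in MDA-MB-468 and 3.34 ± 0.863 FPKM in HCC70, and HBEGF 2.21 ± 0.716 and 3.16 ± 0.801 FPKM. EREG averaged 1.297 ± 0.305 FPKM in MDA-MB-468 and 0.819 ± 0.333 FPKM in HCC70, and BTC 0.937 ± 0.799 and 0.685 ± 0.0949 FPKM. EPGN was the lowest of these ligands in MDA-MB-468, at 0.184 FPKM with 2 of 3 values at the floor, and the highest in HCC70, at 5.18 ± 2.28 FPKM. In the HCC70 K18+ library 85.5% of all genes had lower values than ERRFI1, 50.4% lower values than TGFA and 35.5% lower values than BTC. AREG was listed at the floor in all 6 libraries.

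**Figure D1:**
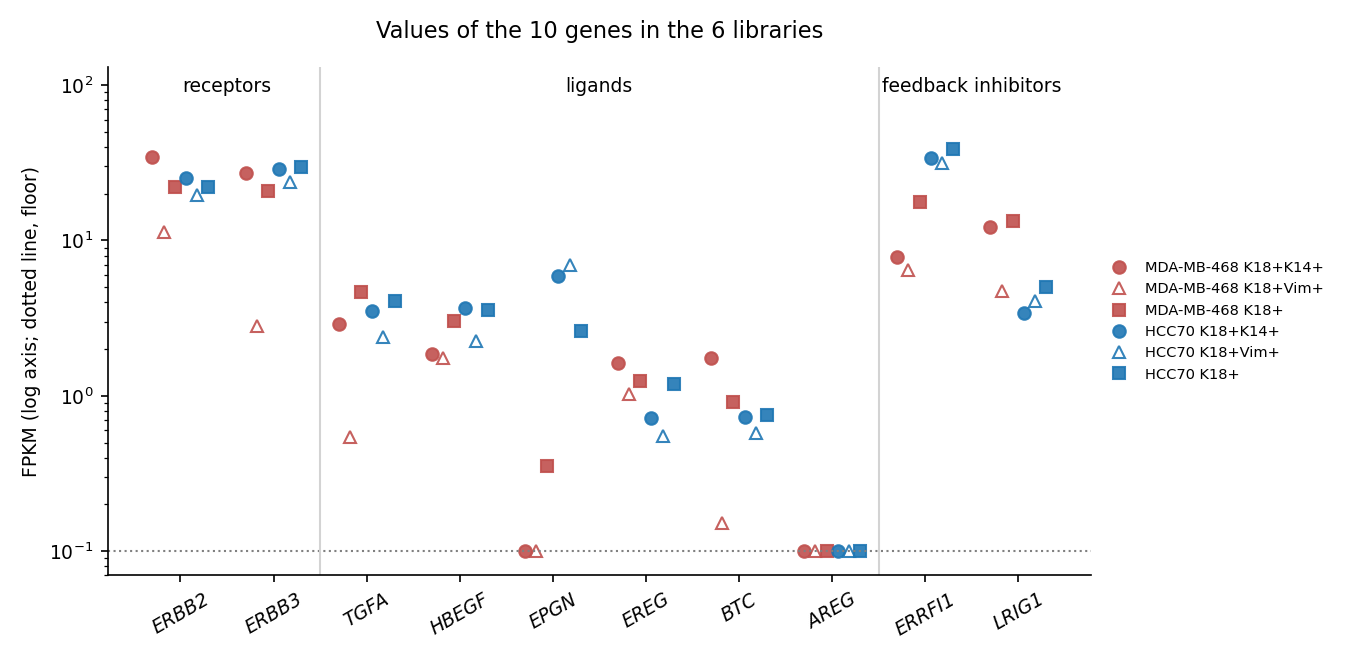
FPKM on a log axis for the 10 genes, grouped by role. Each symbol is 1 library (red, MDA-MB-468; blue, HCC70; circles, K18+K14+; open triangles, K18+Vim+; squares, K18+), and the dotted line is the floor of 0.1 FPKM. EPGN and ERRFI1 have all MDA-MB-468 symbols below all HCC70 symbols, and AREG lies on the floor throughout.

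The sequences before the transcription start sites of EPGN, EREG and ERRFI1 are shown because EPGN and ERRFI1 were the members that differed between the lines, and EREG is the gene next to EPGN among protein-coding genes, on the same strand, but with a different pattern over the libraries. They are the 250 bases upstream of the start in RefSeq (GRCh38.p14, another build than the GRCh37 of the data), read along the strand of the gene, at chr4:74308220-74308469 (plus strand), chr4:74364895-74365144 (plus strand) and chr1:8026310-8026559 (minus strand). Capitals mark matches, on either strand, to the cyclic AMP response element TGACGTCA, the AP-1 motif TGANTCA, the TATA box TATAAA, the GC box GGGCGG or the E-box CACCTG.
EPGN: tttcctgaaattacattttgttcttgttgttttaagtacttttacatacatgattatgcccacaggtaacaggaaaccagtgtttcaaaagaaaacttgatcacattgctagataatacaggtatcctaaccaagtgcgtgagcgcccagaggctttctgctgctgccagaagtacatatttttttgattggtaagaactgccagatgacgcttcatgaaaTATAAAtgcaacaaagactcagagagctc
EREG: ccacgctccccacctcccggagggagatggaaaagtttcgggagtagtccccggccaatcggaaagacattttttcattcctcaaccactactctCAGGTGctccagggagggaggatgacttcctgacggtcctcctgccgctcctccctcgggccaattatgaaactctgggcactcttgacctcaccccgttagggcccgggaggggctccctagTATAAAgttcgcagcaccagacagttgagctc
ERRFI1: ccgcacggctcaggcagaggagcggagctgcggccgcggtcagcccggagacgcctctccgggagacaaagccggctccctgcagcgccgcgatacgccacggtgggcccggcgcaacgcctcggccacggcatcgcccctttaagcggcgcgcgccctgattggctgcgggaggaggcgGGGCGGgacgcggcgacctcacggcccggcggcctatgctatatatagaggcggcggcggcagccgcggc
EPGN and EREG each hold a TATA box that ends 24 and 27 bases before the start, and EREG also holds an E-box. ERRFI1 holds a GC box. Only the letters given above were searched, so variants of a motif are not marked, such as the tatatata near the end of the ERRFI1 window. An unmarked window is thus not shown to lack a TATA element. The matches do not overlap each other. Over 35116 human promoter windows of this length, 10.7% held the TATA box, 42.6% the GC box, 17.5% the E-box, 6.57% the AP-1 motif and 1.65% the cyclic AMP response element. GC content was 38% in the EPGN window, 58% in the EREG window and 75.2% in the ERRFI1 window.

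The comparison of the lines asks how the 2 models differ in these genes, and it is where members passed the test. EPGN, which encodes the low-affinity EGFR ligand epigen, and ERRFI1 were lower in MDA-MB-468 than in HCC70. The test was limma on log2(FPKM + 1) over the 12454 genes whose mean reached 1 FPKM, with line and population as terms and p-values adjusted over all genes. AREG and BTC did not reach that mean, so 8 members were tested. Of these, 0 passed as higher and 2 as lower in MDA-MB-468, and of the 2 EPGN had to differ, as set out below. Over all genes tested 12.2% passed, 4.54% as higher and 7.68% as lower.

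EPGN was at the floor of 0.1 FPKM in the K18+K14+ and K18+Vim+ libraries of MDA-MB-468 and at 0.352 FPKM in its K18+ library, against 5.92, 6.997 and 2.62 FPKM in the K18+K14+, K18+Vim+ and K18+ libraries of HCC70. The groups did not overlap. The fitted log2 difference was -2.31 ± 0.42 (SE, n = 3 per line, limma adjusted p = 0.0244), on a scale that understates differences of low values. EPGN reached the mean of 1 FPKM through HCC70 alone, and a gene let into the test in that way had to differ, so its call adds nothing to the values themselves.

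ERRFI1 stood at 7.81, 6.44 and 17.8 FPKM in the K18+K14+, K18+Vim+ and K18+ libraries of MDA-MB-468, against 34.1, 31.4 and 39.1 FPKM in those of HCC70. Again each MDA-MB-468 library was below each HCC70 library. The mean was 10.7 ± 6.18 FPKM in MDA-MB-468 and 34.8 ± 3.89 FPKM in HCC70 (SD, n = 3 each), and this SD includes the differences between populations. The fitted log2 difference was -1.74 ± 0.35 (SE, limma adjusted p = 0.0309). Libraries without overlap, all lower in MDA-MB-468, were found for 2 of 8 members and for 21% of all genes tested, and all higher for 0 of 8 members and 20.1% of all genes. The 2 include EPGN, which had to differ.

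Luminal markers summed to 251 to 4600 FPKM in the MDA-MB-468 libraries and to 2777 to 3124 FPKM in the HCC70 libraries, the lowest sum being that of MDA-MB-468 K18+Vim+. The part of this in the differences between the lines was not tested.

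LRIG1, a transmembrane protein that also marks epithelial stem cells, had a difference of the other sign that did not pass with all libraries. It stood at 12.2, 4.71 and 13.4 FPKM in K18+K14+, K18+Vim+ and K18+ cells of MDA-MB-468, against 3.40, 4.09 and 4.99 FPKM in HCC70. The K18+Vim+ value of MDA-MB-468 lay within the HCC70 range and the other values lay above it. The fitted log2 difference was 1.01 ± 0.38 (SE, n = 3 per line, limma adjusted p = 0.126). With the K18+Vim+ libraries of both lines left out, an alternative chosen after the data were seen, it was 1.43 ± 0.34 (SE, n = 2 per line, limma adjusted p = 0.0163). Wherever that fit is used, it has fewer residual degrees of freedom than the 2 of the fit with all libraries. ERRFI1 passed in that fit as well, with a log2 difference of -1.54 (limma adjusted p = 0.0158). EPGN, which had to differ, passed at -2.04 (limma adjusted p = 0.00541). In that fit 3366 of the 12454 genes tested passed. The ratio of ERRFI1 to LRIG1 FPKM was 0.638 in K18+K14+, 1.37 in K18+Vim+ and 1.33 in K18+ cells of MDA-MB-468, against 10.02, 7.67 and 7.83 in those of HCC70. ERRFI1 was thus several times LRIG1 in each HCC70 library and of a similar level in each MDA-MB-468 library.

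The calls of EPGN and ERRFI1 rested on each of the K18+K14+ and K18+ libraries. Leaving out any of these 4 gave limma adjusted p-values of 0.0655 to 0.102 for EPGN and 0.109 to 0.119 for ERRFI1, with the differences staying between -2.76 and -2.14 and between -2.06 and -1.61. With no filter on low values they were 0.148 and 0.145, and no gene passed.

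**Figure D2:**
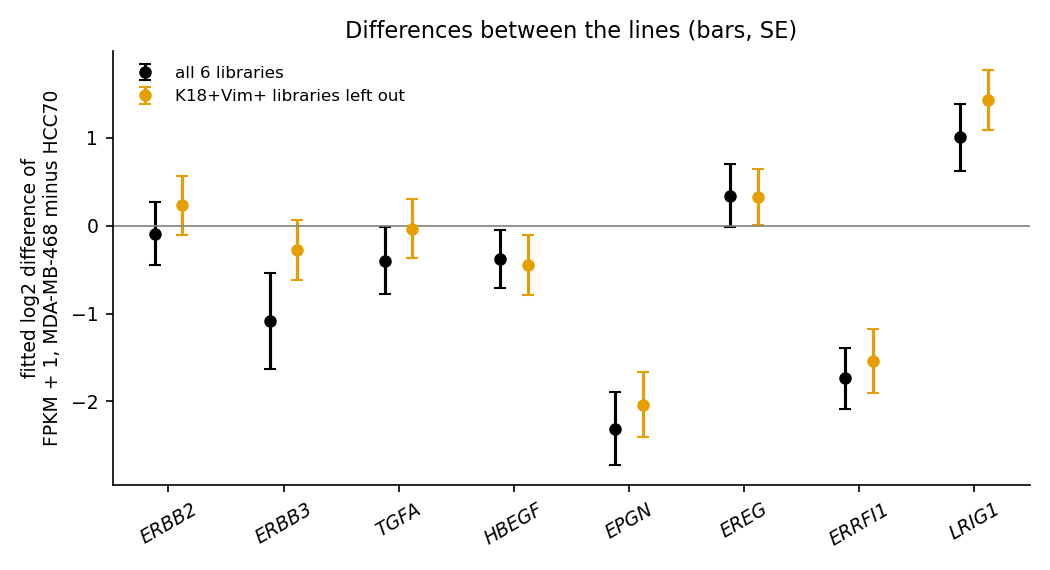
Fitted log2 differences of FPKM + 1 between the lines (MDA-MB-468 minus HCC70) for the 8 members tested, with SE bars, from all 6 libraries (black) and with the K18+Vim+ libraries left out (orange). EPGN and ERRFI1 lie below 0 in both fits, LRIG1 lies above 0, and ERBB2 changes sign.

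The receptors did not pass between the lines. ERBB2 stood at 34.7, 11.3 and 22.2 FPKM in K18+K14+, K18+Vim+ and K18+ cells of MDA-MB-468, against 25.1, 19.5 and 22.0 FPKM in HCC70. These ranges overlap, and the fitted log2 difference was -0.09 ± 0.36 (SE, limma adjusted p = 0.876). It turned to 0.23 without the K18+Vim+ libraries. ERBB3 stood at 27.4, 2.83 and 21.0 FPKM in MDA-MB-468, against 28.8, 23.9 and 29.7 FPKM in HCC70. Its difference of -1.08 ± 0.54 (SE, limma adjusted p = 0.214) became -0.28 without the K18+Vim+ libraries. EGFR made up 53.2%, 42.1% and 78.0% of the summed FPKM of the 4 receptors in the K18+K14+, K18+Vim+ and K18+ libraries of MDA-MB-468, against 24.9%, 20.4% and 31.0% in HCC70. The 42.1% is a share of only 24.7 FPKM, in the library where EGFR was below every HCC70 library. ERBB3 took 20.6%, 11.4% and 10.7% in MDA-MB-468 and 40.0%, 43.7% and 39.5% in HCC70, while ERBB4 stayed under 1% in every library.

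Among the other ligands the ranges of the lines overlapped. TGFA, a strong EGFR agonist, stood at 2.88, 0.546 and 4.68 FPKM in K18+K14+, K18+Vim+ and K18+ cells of MDA-MB-468, against 3.52, 2.40 and 4.10 FPKM in HCC70. HBEGF, which also binds ERBB4, stood at 1.85, 1.75 and 3.04 FPKM in MDA-MB-468, against 3.69, 2.24 and 3.54 FPKM in HCC70. EREG, which encodes epiregulin, stood at 1.63, 1.03 and 1.24 FPKM in MDA-MB-468, against 0.717, 0.548 and 1.19 FPKM in HCC70. The limma adjusted p-values of the 3 lay between 0.457 and 0.533. BTC, which encodes betacellulin, stood at 1.75, 0.152 and 0.909 FPKM in MDA-MB-468, against 0.727, 0.576 and 0.751 FPKM in HCC70, and was not tested.

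The makeup of the ligands differed with EPGN. The 5 ligands other than AREG summed to 8.20, 3.57 and 10.2 FPKM in the K18+K14+, K18+Vim+ and K18+ libraries of MDA-MB-468, and to 14.6, 12.8 and 12.2 FPKM in HCC70. EPGN made up 1.22%, 2.80% and 3.45% of these sums in MDA-MB-468, of which the first 2 are floor values, against 40.6%, 54.8% and 21.5% in HCC70. Of these 5, TGFA had the largest share in K18+K14+ and K18+ cells of MDA-MB-468, at 35.1% and 45.8%, and HBEGF in K18+Vim+, at 49.0%. In HCC70 EPGN had the largest share of the 5 in K18+K14+ and K18+Vim+ cells, and TGFA in K18+ cells, at 33.6%. The sums leave out the EGFR ligand EGF, so the shares do not rank all EGFR ligands. EGF stood at 15.5, 0.217 and 4.37 FPKM in K18+K14+, K18+Vim+ and K18+ cells of MDA-MB-468, against 2.93, 2.99 and 7.36 FPKM in HCC70.

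**Figure D3:**
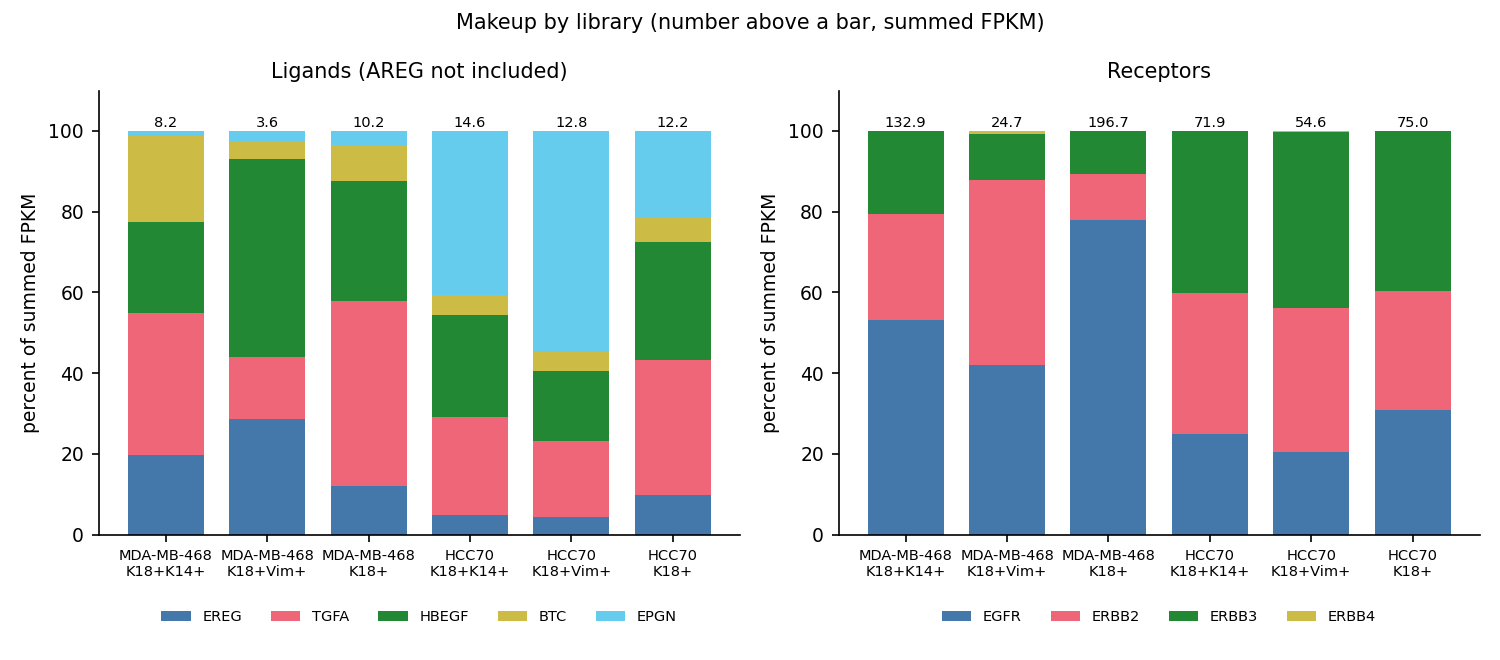
Share of each gene in the summed FPKM of 5 ligands (left) and of the 4 receptors (right) in each library, with the sum in FPKM above each bar. AREG and EGF are not among the ligands shown. The EPGN share is at most 3.45% in MDA-MB-468 and at least 21.5% in HCC70, and EGFR takes 53.2% and 78.0% of the receptor sum in K18+K14+ and K18+ cells of MDA-MB-468 and at most 31.0% in HCC70. In the MDA-MB-468 library labelled K18+Vim+ it takes 42.1% of a sum of 24.7 FPKM.

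AREG encodes amphiregulin, an EGFR ligand of mammary epithelium. Its 0.1 FPKM in all 6 libraries is only a listing at the floor. RefSeq gives AREGB, once annotated as a separate copy of the gene, as a synonym of AREG. How reads shared between such copies were counted is not given in the sources used here, so the value of AREG is uncertain. Of the 18795 genes, 2096 were at the floor in all libraries. None of 16 reference genes that nearly all cells use was among them. In RefSeq (GRCh38.p14) EPGN, EREG, AREG and BTC lie in this order on chromosome 4 with no other protein-coding gene between them. Before EPGN lie MTHFD2L, whose values overlapped between the lines, and then CXCL2, a chemokine gene listed at 0.262, 0.22 and 0.909 FPKM in MDA-MB-468 and at 7.61, 8.02 and 8.09 FPKM in HCC70. CXCL2 was singled out after its values were seen.

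Setting K18+Vim+ beside K18+ cells asks which ERBB genes accompany vimentin. No member passed, but 7 of the 8 tested had lower values in the K18+Vim+ library of both lines (33.9% of all genes did), and 0 had higher values in both (16.5% of all genes). The median log2 ratio of the 8 was -1.12 in MDA-MB-468 and -0.30 in HCC70, against -0.04 and -0.16 over all genes tested. The exception was EPGN. In these mixed populations, fewer cells that express a gene and less RNA of it per cell cannot be told apart.

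ERBB3 and TGFA had the largest fitted differences. The values of ERBB3 were 2.83 FPKM in K18+Vim+ against 21.0 FPKM in K18+ cells of MDA-MB-468, and 23.9 against 29.7 FPKM in HCC70. TGFA gave 0.546 FPKM in K18+Vim+ against 4.68 FPKM in K18+ cells of MDA-MB-468, and 2.40 against 4.10 FPKM in HCC70. In both genes the MDA-MB-468 pair lay far apart and the HCC70 pair closer together. The fitted log2 difference was -1.41 ± 0.66 for ERBB3 and -1.23 ± 0.47 for TGFA, with SE from 2 libraries per population (limma adjusted p = 0.863 for each).

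The 5 other members that were lower in both lines had smaller fitted differences. The ratios of FPKM between K18+Vim+ and K18+ cells in MDA-MB-468 were 0.352 for LRIG1, 0.363 for ERRFI1, 0.509 for ERBB2, 0.577 for HBEGF and 0.828 for EREG. In HCC70 they were 0.821 for LRIG1, 0.804 for ERRFI1, 0.885 for ERBB2, 0.631 for HBEGF and 0.46 for EREG. EREG was the only one of the 5 whose ratio was lower in HCC70. With all libraries the fitted differences were -0.54 for ERBB2, -0.78 for LRIG1, -0.82 for ERRFI1, -0.52 for HBEGF and -0.32 for EREG. Without the MDA-MB-468 library labelled K18+Vim+ they were -0.059 for ERBB2, -0.15 for LRIG1, -0.53 for ERRFI1, -0.63 for HBEGF and -0.36 for EREG. There the HCC70 library alone stood for K18+Vim+, so only the differences are given. BTC, not tested, had a ratio of 0.167 in MDA-MB-468 and of 0.767 in HCC70.

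Markers moved with the low values of that MDA-MB-468 library. The 8 luminal epithelial markers summed to 251 FPKM there, against 2850 FPKM in K18+ cells of MDA-MB-468, and to 3103 against 2777 FPKM in HCC70. The 12 mesenchymal markers summed to 350 against 42.5 FPKM in MDA-MB-468 and to 146 against 81.3 FPKM in HCC70, with 0 and 2 of the 12 at the floor in the K18+Vim+ libraries. The 10 fibroblast and endothelial markers summed to 4.49 against 5.65 FPKM and to 10.8 against 10.2 FPKM, and at least 5 of them were at the floor in each of these libraries, among them the endothelial gene PECAM1. The 9 basal markers summed to 61.8 against 662 FPKM and to 326 against 427 FPKM, and the 6 immune markers to 4.07 against 30.9 FPKM and to 58.3 against 97.8 FPKM, mostly CD14. The part of these shifts in the ERBB values was not tested. Without the MDA-MB-468 library labelled K18+Vim+ the fitted differences were -0.20 for ERBB3 and -0.68 for TGFA. Without the HCC70 K18+Vim+ library they were -2.62 for ERBB3 and -1.78 for TGFA. There the MDA-MB-468 library alone stood for the population, so only the differences are given here.

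In this comparison 0% of the 12454 genes passed with limma. An unadjusted p under 0.05 was found for 532 genes, TGFA among them. The test has 2 residual degrees of freedom, and its error is the disagreement between the 2 lines, not the spread between cultures of a line.

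In HCC70 EPGN was the only member tested that was higher in K18+Vim+ than in K18+ cells. It stood at 6.997 FPKM in K18+Vim+ and 5.92 FPKM in K18+K14+ against 2.62 FPKM in K18+ cells, ratios of 2.67 and 2.26, with 1 library each and no test. ERBB2 and HBEGF were also higher in K18+K14+ than in K18+ cells of HCC70, with ratios of 1.14 and 1.04. EPGN has a short transcript, with 4.98% of the genes tested shorter. In HCC70 the log2 ratios to K18+ fell with transcript length, with Spearman coefficients over genes of -0.15 for K18+Vim+ and -0.23 for K18+K14+. The part of transcript length in the EPGN ratios was not tested.

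Setting K18+K14+ beside the same K18+ libraries asks which ERBB genes accompany keratin 14, and the members went in different directions. Higher values in both lines were found for 1 of 8 members, ERBB2 (20.2% of all genes tested), and lower values in both for 3, TGFA, ERRFI1 and LRIG1 (43.7% of all genes). ERBB2 gave 34.7 FPKM in K18+K14+ against 22.2 FPKM in K18+ cells of MDA-MB-468, and 25.1 against 22.0 FPKM in HCC70. ERRFI1 gave 7.81 against 17.8 FPKM in MDA-MB-468, and 34.1 against 39.1 FPKM in HCC70. The fitted log2 differences were 0.40 ± 0.44 for ERBB2 (SE, n = 2 libraries each, limma adjusted p = 0.874) and -0.64 ± 0.43 for ERRFI1 (limma adjusted p = 0.855). Leaving out 1 library moved ERBB2 between -0.0048 and 0.81 and ERRFI1 between -1.12 and -0.16, with the smallest ERRFI1 difference in the fit without the MDA-MB-468 K18+ library. The median over the members was -0.21 in MDA-MB-468 and -0.11 in HCC70, against -0.17 and -0.15 over all genes.

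ERBB3, EREG, HBEGF and EPGN had ratios of opposite sign in the lines. BTC, not tested, gave 1.75 against 0.909 FPKM in MDA-MB-468, and 0.727 against 0.751 FPKM in HCC70. The basal markers summed to 1511 FPKM in K18+K14+ against 662 FPKM in K18+ cells of MDA-MB-468, and to 646 against 427 FPKM in HCC70, and their part in these values was not tested. With limma, 0% of genes passed, 428 genes had an unadjusted p under 0.05, and no member did. In MDA-MB-468 the log2 ratios fell with transcript length, with a Spearman coefficient over genes of -0.302, and its part was not tested. The transcript of ERBB2 is longer than those of 70.6% of the genes tested, and that of ERRFI1 longer than 40.7%.

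K18+Vim+ against K18+K14+ uses the libraries of both preceding comparisons again. Here 6 of 8 members were lower in both lines (23.7% of all genes tested) and 0 were higher in both (25.6%). The ratio of FPKM for ERBB3 was 0.103 in MDA-MB-468 and 0.829 in HCC70, and for ERBB2 it was 0.326 and 0.776. The fitted log2 differences were -1.58 ± 0.66 for ERBB3 and -0.94 ± 0.44 for ERBB2, with SE from 2 libraries per population (limma adjusted p = 0.682 for each). With limma 0% of genes passed, and 680 genes and no member had an unadjusted p under 0.05. Without the HCC70 K18+Vim+ library, where the MDA-MB-468 library alone stood for K18+Vim+, the ERBB3 difference was -2.79. Without the MDA-MB-468 library labelled K18+Vim+ it was -0.36. The same omissions gave ERBB2 differences of -1.43 (HCC70 library left out) and -0.46 (MDA-MB-468 library left out).

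**Figure D4:**
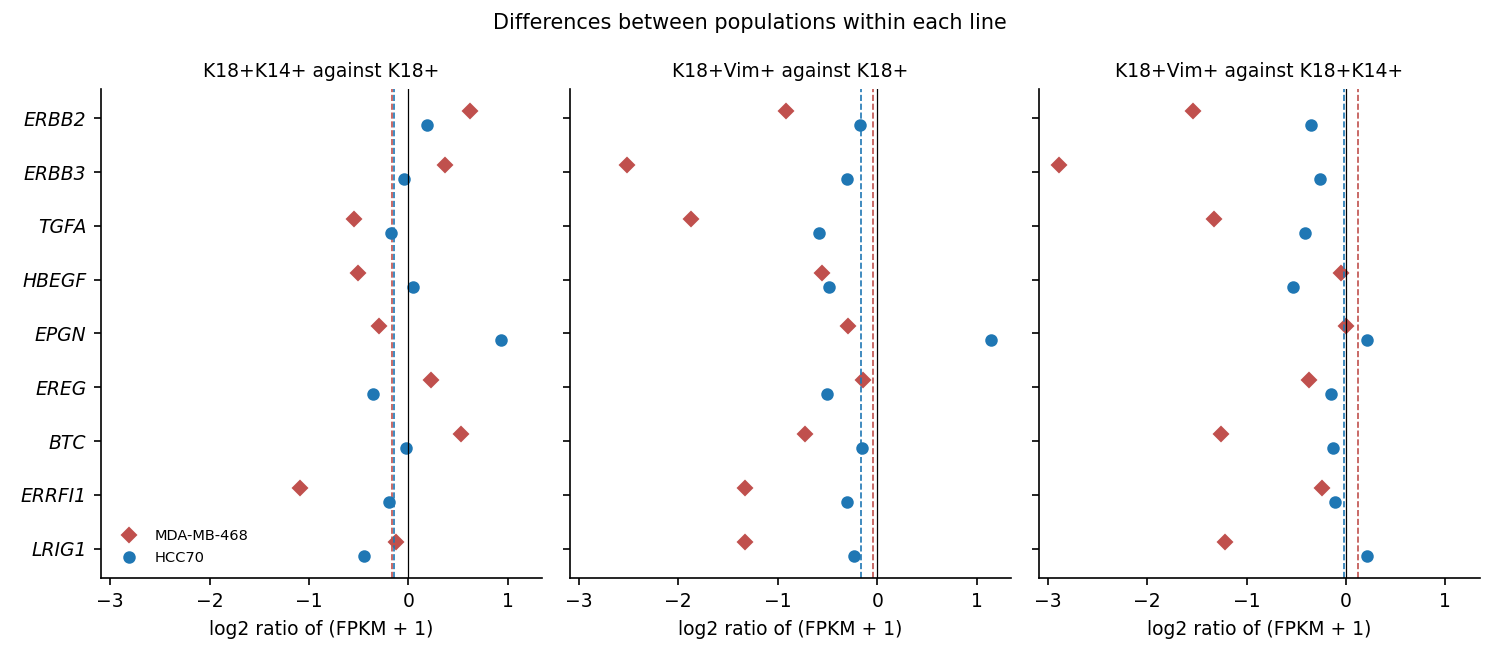
Log2 ratios of FPKM + 1 within MDA-MB-468 (red diamonds) and HCC70 (blue circles) for 9 of the genes and 3 pairs of populations; AREG, at the floor throughout, is left out. Dashed lines are the medians of all genes tested in the line of the same colour. The MDA-MB-468 symbols spread far to the left where K18+Vim+ is compared, with ERBB3 lowest at -2.52 and -2.89.

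The genes around the members were described from lists of the pathway. No list gene passed in a comparison of populations. Between the lines, the shares of all genes to set the counts against are the 4.54% that passed as higher and the 7.68% that passed as lower in MDA-MB-468. In the fit without the K18+Vim+ libraries, 3366 of the 12454 genes tested passed. NRG2, a neuregulin, was listed at 5.12, 1.28 and 2.82 FPKM in K18+K14+, K18+Vim+ and K18+ cells of MDA-MB-468, against 0.1 to 0.106 FPKM in HCC70. TIMP3, an inhibitor of sheddases, had 4.05 to 10.3 FPKM in MDA-MB-468, against 0.1 to 0.145 FPKM in HCC70. Both genes reached the mean of 1 FPKM through MDA-MB-468 alone and so had to differ, and their calls are not counted here. EGFR itself did not pass with all libraries and passed without the K18+Vim+ libraries (log2 difference 2.30 ± 0.36, SE, n = 2 per line, limma adjusted p = 0.00297). Of 10 genes of ligand shedding and trafficking, 2 passed as lower, the sheddase gene ADAM15 and RHBDF1, which encodes a trafficking factor of the sheddase ADAM17. RHBDF1 had 23.9 to 64.1 FPKM in MDA-MB-468, against 120.3 to 173 FPKM in HCC70. Without the K18+Vim+ libraries RHBDF1 passed and ADAM15 did not (limma adjusted p = 0.0233 and 0.0589).

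Of 16 ERK-induced genes, 0 passed as higher and 3 as lower in MDA-MB-468, FOS, SPHK1 and EPHA2, with a list median of -0.77, against 0.01 over all genes tested. FOS, an immediate early transcription factor, stood at 8.26, 2.55 and 11.1 FPKM in K18+K14+, K18+Vim+ and K18+ cells of MDA-MB-468, against 93.5, 76.6 and 149.7 FPKM in HCC70 (log2 difference -3.82 ± 0.35, SE, n = 3 per line, limma adjusted p = 0.00473). Without the K18+Vim+ libraries FOS was at -3.497 (limma adjusted p = 0.000277), 1 gene of the list passed as higher and 3 as lower, and the list median was -0.51, against -0.05 over all genes. Of the 12454 genes tested, 3366 passed in that fit, so these counts are near the share of all genes.

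Of 21 other feedback inhibitors, 2 passed as lower and 0 as higher, which is near the share of all genes. These 2 were the ubiquitin ligases CBLB and NEDD4L. CBLB stood at 0.56, 3.92 and 5.76 FPKM in MDA-MB-468, against 18.2, 26.5 and 22.8 FPKM in HCC70, and it passed without the K18+Vim+ libraries too (log2 difference -2.72 ± 0.45, SE, n = 2 per line, limma adjusted p = 0.00362). Among 18 adaptors and kinases of the ERK cascade, 1 passed as higher, GRB2, and 2 as lower, MAPK3 and SOS2, which is also near the shares of all genes. Of 12 genes of the PI3K list, 1 passed as lower in MDA-MB-468, again near that share, PIK3CB, which encodes a catalytic subunit of PI3K. These 4 passed without the K18+Vim+ libraries as well, a fit in which 3366 of the 12454 genes tested passed.

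Between K18+Vim+ and K18+ cells, 8 of the 16 ERK-induced genes and 14 of the 21 other feedback inhibitors had lower values in both lines, and 0 of each higher values in both, beside 33.9% and 16.5% of all genes. Their median fitted log2 differences were -0.82 and -0.32, against -0.12 over all genes. Without the MDA-MB-468 library labelled K18+Vim+ they were -0.16 and -0.47, against -0.17 over all genes, so that the ERK-induced list then lay at the level of all genes. In K18+K14+ against K18+ cells, 17 of the 21 inhibitors had lower and 1 had higher values in both lines, beside 43.7% and 20.2% of all genes, with a median of -0.59, against -0.16 over all genes. CBLB had the largest fitted difference of that list there, -1.21, and did not pass. The log2 ratios of K18+K14+ to K18+ cells fell with transcript length, with Spearman coefficients over genes of -0.302 in MDA-MB-468 and -0.23 in HCC70. The part of transcript length in the values of this list was not tested.

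Genes whose pattern over the 6 libraries was most like that of a member were listed by the Pearson correlation of log2(FPKM + 1), as a description. For ERRFI1 these were ZNF558, UTS2 and NFIA, with r from 0.995 to 0.997. For ERBB2 they were LMNA, ZNF672 and RIN1, with r from 0.994 to 0.995. For TGFA they were CRYBG1, FAM111A and ILRUN, with r from 0.993 to 0.9995. With 6 points that share 2 lines and the MDA-MB-468 library labelled K18+Vim+, high values are common: 375 genes correlated with ERRFI1, 82 with ERBB2 and 90 with TGFA above 0.95. Among the members themselves, the highest correlations were those of ERBB3 with TGFA at 0.90 and of EPGN with ERRFI1 at 0.87, and the lowest was that of EPGN with EREG at -0.82.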

How the data were processed

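FPKM per Entrez Gene ID were made and deposited by the authors. TopHat2 and the build GRCh37 are named per the submitters' processing notes. What aligner version, counting tool, annotation and lanes were used is not given in the sources used here. Per the labels' protocols, RNA came from methanol-fixed, stained and sorted cells and may be broken, which FPKM does not correct. Of 18807 rows, 7 were dropped for a blank value, and of the rows of 5 repeated IDs the one with the highest mean was used. Symbols matched 18732 IDs.

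The 12454 genes whose mean reached 1 FPKM entered limma 3.58.1 (R 4.3.3, with trend) as log2(FPKM + 1), with all 6 libraries, population and cell line as terms, 2 residual degrees of freedom, Benjamini-Hochberg adjustment over all genes and a threshold of 0.05. The fit was run on simulated data with independent normal noise. These held no deviating library, so that run says nothing about the MDA-MB-468 library labelled K18+Vim+. Populations were paired by the cell line in the labels; libraries of HCC70 correlated at 0.967 to 0.978, and libraries of different lines at 0.743 to 0.838. Each line gave 1 library per population, so p-values do not measure the spread between cultures.

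The members and gene lists were chosen with earlier results of these data known. All members are named; list genes are those with the largest fitted differences, and likeness is given for the ligand, receptor and inhibitor with the highest mean. 1 result of the PI3K list is not reported here. Promoters were found for 9 of 10 members. Alternatives were no block for the line, the 4 libraries compared, a pseudocount of 0.1, no filter, quantile normalization, no trend, each library left out and, added after the data were seen, both K18+Vim+ libraries left out for the lines, also for the lists, and the MDA-MB-468 K18+Vim+ library left out for the lists. Python 3.11.15, pandas 2.3.3 and matplotlib 3.10.9 served for tables and figures.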

Additional observations from a re-analysis of the deposited data

Results flagged for a closer look

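Several members had log2 ratios of (FPKM + 1) with opposite signs in the lines. With 1 library per population and line, these differences between the lines were not tested. In K18+K14+ against K18+ cells this held for 4 of the 8 members with a mean of at least 1 FPKM. ERBB3 had 0.37 in MDA-MB-468 and -0.043 in HCC70, and EREG had 0.23 and -0.35. HBEGF had -0.50 in MDA-MB-468 and 0.047 in HCC70, and EPGN had -0.30 and 0.93. In K18+Vim+ against K18+ cells EPGN had -0.30 in MDA-MB-468 and 1.14 in HCC70. In K18+Vim+ against K18+K14+ cells LRIG1 had -1.21 in MDA-MB-468, a value that rests on the library labelled K18+Vim+, and 0.21 in HCC70. The EPGN values of MDA-MB-468 compare the floor of 0.1 FPKM with 0.352 FPKM.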

How the results depend on the processing

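Of 384 fitted differences of members recomputed under alternatives, 346 kept their direction and their side of the threshold. Many of these could not change direction, because the design is balanced. No block, no filter, no trend and the 4 libraries compared leave a fitted difference as it is. So does leaving out a library of the population that a comparison of populations does not use. For these only the side of the threshold could change. In the 3 comparisons of populations the count of genes passed was 0 with the replicate block for cell line, without it and under all other settings that kept all libraries; leaving out 1 library gave 0 to 1 genes in K18+K14+ against K18+, 0 to 1500 in K18+Vim+ against K18+ and 0 to 1988 in K18+Vim+ against K18+K14+, with 0, 0 to 2 and 0 to 1 members. Where a library of a compared population was left out, 1 library alone stood for that population, so these counts are not those of a replicated test. For the lines, 1522 genes and 2 members passed, 1875 and 2 without the block, and 0 and 0 with no filter. Leaving out 1 library gave 206 to 3360 genes and 0 to 3 members, and leaving out both K18+Vim+ libraries gave 3366 and 3. Leaving out both gives the same fitted differences between the lines as leaving out 1 of them, so it is not a separate check. Signs turned for EPGN in K18+K14+ against K18+ at a pseudocount of 0.1 (-0.015), for EREG (0.18) and HBEGF (0.055) after quantile normalization, and for ERBB2 between the lines after quantile normalization (0.0195) and without the K18+Vim+ libraries (0.23). Leaving out 1 library in turn also turned signs. In K18+K14+ against K18+ the ranges were -0.0048 to 0.81 for ERBB2, -0.60 to 0.92 for ERBB3, -0.295 to 0.17 for EREG, -0.78 to 0.055 for TGFA, -0.49 to 0.031 for HBEGF, -0.35 to 0.99 for EPGN and -0.72 to 0.15 for LRIG1. In K18+Vim+ against K18+ the range was -0.25 to 1.09 for EPGN, and in K18+Vim+ against K18+K14+ it was -0.31 to 0.52 for EPGN, -0.47 to 0.11 for ERRFI1 and -1.13 to 0.13 for LRIG1. Between the lines it was -0.36 to 0.23 for ERBB2. The cause was not tested. Read counts are unknown, so counting error could not be given.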
